A study of Mus musculus with 6 samples.

Results

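Interferon receptors and the proteins that restrain them were examined as 10 genes among the 53700 listed in the RNA-seq of SL4 cells. The genes were chosen by symbol, and each symbol had 1 gene identifier. They comprise 5 receptor chains (Ifnar1, Ifnar2, Ifngr1, Ifngr2 and Il10rb) and 5 brakes, which are the protease Usp18 and the tyrosine phosphatases Ptpn1, Ptpn2, Ptpn6 and Ptpn11. All 10 passed the filter on low values, a mean over the libraries of 1 TPM or more. The deposited values name no unit and were taken to be TPM. TPM is an abundance corrected for transcript length and for the size of the library (SE below is the standard error of a log2 fold change). Levels of different genes can therefore be compared, but the number of reads behind a value is not known.

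SL4 is a mouse colorectal cancer (CRC) cell line that expresses luciferase. The control group held 3 libraries of SL4 cells without SEMA6A overexpression, and the pLV-SEMA6A group held 3 libraries of SL4 cells stably overexpressing SEMA6A from a lentivirus. No cytokine treatment is given for either group. The labels do not say whether the control cells carried a control lentivirus. The study's methods call the sequenced control cells SL4, and its account of the RNA-seq calls them a pLV control. No independently made pLV-SEMA6A lines or separate cultures are described, so an effect of SEMA6A and a difference between 2 cell lines cannot be told apart, and p-values measure only the spread between these libraries.

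Interferons signal through paired receptor chains. Type I interferons (the alpha and beta interferons) bind IFNAR1 and IFNAR2, which carry the kinases TYK2 and JAK1. Interferon gamma binds IFNGR1 and IFNGR2, which carry JAK1 and JAK2. IL10RB is the shared chain of the receptors for IL-10, IL-22 and the lambda interferons. The kinases phosphorylate STAT proteins, and STAT2 with IRF9 is part of the complex that switches on interferon-stimulated genes. USP18 is itself induced by interferon, binds IFNAR2 to dampen further signalling, and removes ISG15 from proteins. The phosphatases take phosphate off the receptors, kinases or STATs.

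Sema6a read 98.7, 118 and 112 TPM in pLV-SEMA6A and 0 in all of the control libraries, the direction of the labels. Across genes, libraries correlated at a Pearson r of 0.967 to 0.978 within control, 0.974 to 0.978 within pLV-SEMA6A and 0.941 to 0.957 between the groups, on the log2(TPM + 1) scale. A value at or near 0, here and below, may be a failed estimate in such a table. For example, pLV-SEMA6A replicate 2 had only 0.33 TPM of mt-Co3, of which every other library had 141 to 450.1 TPM. The reason for that low value was not tested. The defining epithelial markers Epcam and Cdx2 were listed at 0 in every library, and the 9 colon epithelial markers together summed to at most 2.82 TPM, so the labelled origin is not visible in these markers. The 7 leukocyte markers summed to 1.05 to 2.53 TPM in control and 0.87 to 1.76 TPM in pLV-SEMA6A, with Cd3e, Itgam and Adgre1 at 0 throughout. The 6 fibroblast markers summed to 15.8 to 16.6 TPM in control and 13.5 to 14.9 TPM in pLV-SEMA6A, and none was at 0 throughout. The 4 endothelial markers summed to at most 0.22 TPM, with Cdh5 at 0 throughout.

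Expression was compared on the log2(TPM + 1) scale with limma over 12510 genes, with Benjamini-Hochberg adjustment over all of them. On this scale a fold change is understated for low genes. A gene passed at an adjusted p under 0.05, and it was a differentially expressed gene (DEG) if its absolute log2 fold change was also over 0.5. Of all genes tested, 47.6% passed, 28.2% with a fall and 19.5% with a rise in pLV-SEMA6A. DEGs made up 15.9%, of which those that fell were 10.8% and those that rose 5.12% of all genes tested. The groups did not overlap in 58.5% of all genes tested. With 3 libraries a group, the smallest two-sided p of an exact permutation test is 0.1.

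Of the 5 receptor chains, 4 fell (beside 28.2% of all genes tested) and Il10rb rose (beside 19.5%). Of the 5 brakes, Usp18 fell, Ptpn11 rose and 3 did not pass. Not all of these calls were equally firm. Under 12 alternative settings of the processing, Ifnar1 passed in 3, and Ifngr2 and Il10rb in 5 each. Together 7 of the 10 genes passed, beside 47.6% of all genes tested. Only Usp18 and Ifnar2 were DEGs, 2 of 10 beside 15.9% of all genes tested (10.8% lower, 5.12% higher), a share near the background, and both fell. The groups did not overlap in 8 of the 10 genes, beside 58.5% of all genes. The median log2 fold change was −0.18 for the receptor chains and −0.17 for the brakes, and −0.06 over all genes tested.

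**Figure D1:**
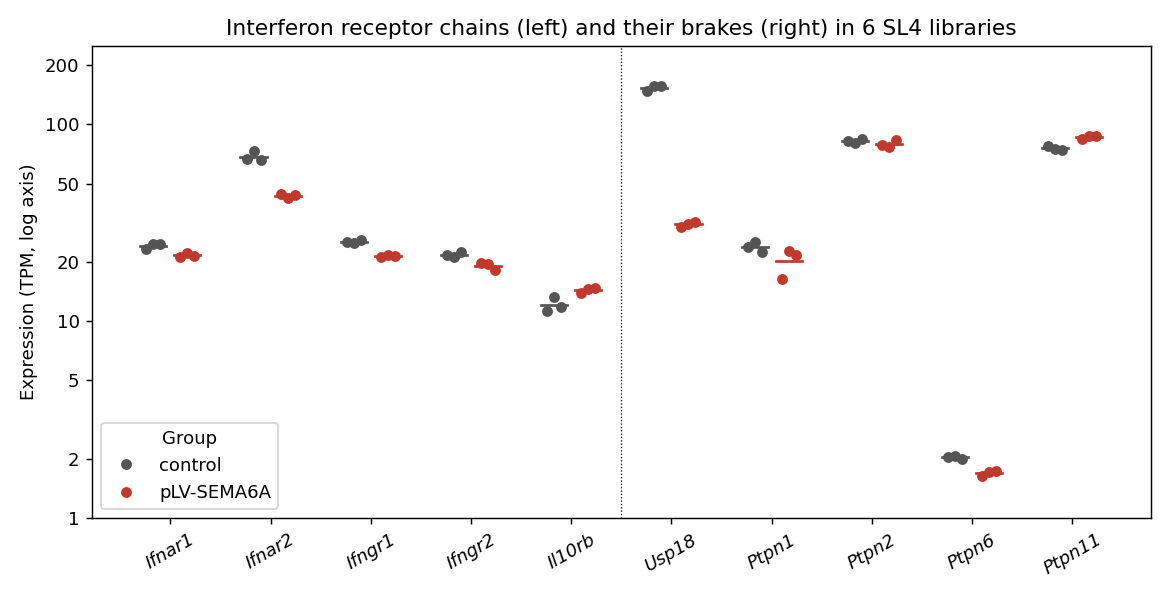
Expression of the 5 receptor chains (left of the dotted line) and the 5 brakes (right) in TPM on a log axis, with 1 point per library and a bar at the group mean, for control (grey, n = 3) and pLV-SEMA6A (red, n = 3). Usp18 lies at 147 to 157 TPM in control and 30.2 to 31.9 TPM in pLV-SEMA6A, Ifnar2 shows the next largest gap, and Ptpn6 is the lowest of the 10 genes in both groups.

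In bulk RNA, fewer cells that express a gene and less RNA of it per cell cannot be told apart. Usp18 had the highest level of the 10 genes in control, above both chains of the type I receptor to which its protein binds. Its expression was 147, 157 and 157 TPM in control against 30.2, 31.1 and 31.9 TPM in pLV-SEMA6A. Every pLV-SEMA6A library thus lay far below every control library. The mean of 31.1 ± 0.84 TPM in pLV-SEMA6A was 4.94-fold lower than the 154 ± 5.56 TPM of control (SD, n = 3 each). The log2 fold change came to −2.27 (SE 0.04, limma adjusted p = 4.4e-07), and 35 of the 12510 genes tested passed with a larger fall. Usp18 lies on chromosome 6 of GRCm38 (121245906 to 121270917, plus strand), and the lincRNA Gm44148 on the opposite strand shares 3.48% of the 31-base stretches of its transcripts. Gm44148 was at a mean of 0.8 TPM in control against 0 in pLV-SEMA6A, and the part of shared reads in the Usp18 values was not tested.

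Ifnar2, the chain that USP18 binds and that carries JAK1, was the most highly expressed receptor chain in both groups. It was at 66.5, 73.0 and 66.1 TPM in control against 44.5, 42.4 and 43.6 TPM in pLV-SEMA6A. The groups were well apart. The fall from 68.6 ± 3.89 to 43.5 ± 1.07 TPM (SD, n = 3 each) was 36.6%, or −0.64 as a log2 fold change (SE 0.05, limma adjusted p = 0.000116). The deposited values are per gene, so transcripts for the membrane-bound and the soluble form of IFNAR2 were not separated.

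Ifnar1, which pairs with Ifnar2 and carries TYK2, was at 23.1, 24.6 and 24.7 TPM in control against 21.2, 22.2 and 21.5 TPM in pLV-SEMA6A. The groups did not overlap, although the gap between the nearest libraries was under 1 TPM. The log2 fold change came to −0.15 (SE 0.05, limma adjusted p = 0.0344), a 10.4% lower mean. This call was lost when any library other than control replicate 1 was left out (limma adjusted p from 0.0508 to 0.0998), and it was also lost with median centring, which sets every library to a common median (log2 fold change −0.06, limma adjusted p = 0.341).

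The 2 chains of the type I receptor are shown with the sequence before their RefSeq start sites (GRCm38.p6). Both lie on chromosome 16, with Il10rb between them, and they fell by different amounts. RefSeq promoters were at hand for 7 of the 10 genes, those of Usp18, Il10rb and Ptpn2 being absent from the table. Each was a window of 250 bases before and 50 after the start, searched on both strands for TTCNNNGAA, the core letters of the gamma-activated site (GAS) that STAT dimers recognise, and for GAAA followed by NN and a further GAAA, the core of the interferon-stimulated response element (ISRE). GAS letters occurred in the windows of Ifnar2 and Ifnar1 and in 8.30% of all 32851 promoters of the same length. ISRE letters occurred in none of the 7 windows and in 3.44% of all promoters. The window of Isg15, the ubiquitin-like protein that USP18 removes, held 3 overlapping ISRE matches and is given as an example of that motif. Capitals mark the GAS letters in the Ifnar sequences and the ISRE letters in Isg15. The Ifnar2 stretch is chr16:91372533-91372782 (plus strand), the Ifnar1 stretch chr16:91484965-91485218 (plus strand, ending at base 4 of the transcript so that its match is whole), and the Isg15 stretch chr4:156200859-156200918 (minus strand).
Ifnar2: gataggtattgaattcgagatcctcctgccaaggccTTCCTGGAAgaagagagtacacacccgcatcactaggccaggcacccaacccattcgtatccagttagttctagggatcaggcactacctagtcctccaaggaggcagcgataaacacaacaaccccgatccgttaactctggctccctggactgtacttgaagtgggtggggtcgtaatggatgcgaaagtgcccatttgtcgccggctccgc
Ifnar1: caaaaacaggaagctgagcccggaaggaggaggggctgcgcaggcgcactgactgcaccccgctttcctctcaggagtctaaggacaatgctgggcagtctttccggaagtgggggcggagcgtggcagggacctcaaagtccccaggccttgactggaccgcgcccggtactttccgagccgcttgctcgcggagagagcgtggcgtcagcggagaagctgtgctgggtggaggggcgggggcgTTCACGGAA
Isg15: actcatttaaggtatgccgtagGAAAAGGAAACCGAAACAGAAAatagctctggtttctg

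The match began 214 bases ahead of the start in Ifnar2 and 5 bases ahead of it in Ifnar1. A match describes the letters in the window and is not evidence of a factor bound there.

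The 2 chains of the interferon gamma receptor fell by small and similar amounts. Ifngr1, the ligand-binding chain, was at 25.3, 24.9 and 25.7 TPM in control against 21.3, 21.6 and 21.4 TPM in pLV-SEMA6A. The 3 pLV-SEMA6A libraries differed from each other by under 1 TPM and all lay below control. The mean was 15.3% lower, or −0.23 as a log2 fold change (SE 0.04, limma adjusted p = 0.00352). Ifngr1 lies on chromosome 10 (19591949 to 19610229), away from the other receptor chains.

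Ifngr2, the chain that carries JAK2, was at 21.7, 21.2 and 22.5 TPM in control against 19.8, 19.5 and 18.2 TPM in pLV-SEMA6A. The groups did not overlap. The log2 fold change came to −0.18 (SE 0.05, limma adjusted p = 0.0279), a 12.1% lower mean. The call was kept without control replicate 2 and without pLV-SEMA6A replicate 1, and was lost without each of the 4 other libraries (limma adjusted p up to 0.0854). It was also lost with median centring (log2 fold change −0.09, limma adjusted p = 0.196).

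Il10rb moved the other way from the remaining chains. It was at 11.3, 13.3 and 11.9 TPM in control against 13.9, 14.5 and 14.7 TPM in pLV-SEMA6A. Each pLV-SEMA6A library was above the highest control library, control replicate 2, which was itself the library nearest to the other group. The log2 fold change came to 0.23 (SE 0.07, limma adjusted p = 0.0373), an 18.3% higher mean. The call was kept without control replicate 2, and was lost without each of the 5 other libraries (limma adjusted p up to 0.105). It was kept with median centring (log2 fold change 0.32, limma adjusted p = 0.0113). The call was lost without a filter and with the replicate block (limma adjusted p = 0.0782 and 0.0533). Other genes hold 14.9% of the 31-base stretches of its transcripts, mainly Gm21970, which spans part of Ifnar2 and of Il10rb and was itself listed at a mean of 0 in both groups.

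Ifnar2, Il10rb, Ifnar1 and Ifngr2 lie in that order on the plus strand of chromosome 16, within 193 kb (91372783 to 91565623). Along this block Ifnar2, Ifnar1 and Ifngr2 were lower and Il10rb higher in pLV-SEMA6A. Of 10 genes listed as its neighbours, 8 were tested, of which 3 rose (beside 19.5% of all genes) and 5 did not pass. Tmem50b, the neighbour on the Ifngr2 side, was at 10.7, 11.4 and 13.5 TPM in control against 18.3, 16.8 and 19.7 TPM in pLV-SEMA6A (log2 fold change 0.59, limma adjusted p = 0.00329). Gart, an enzyme of purine synthesis, had a log2 fold change of 0.45, and Atp5o, a subunit of ATP synthase, one of 0.13. With median centring 6 of the 8 rose, beside 3370 of all 12510 genes tested (2436 as deposited).

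**Figure D2:**
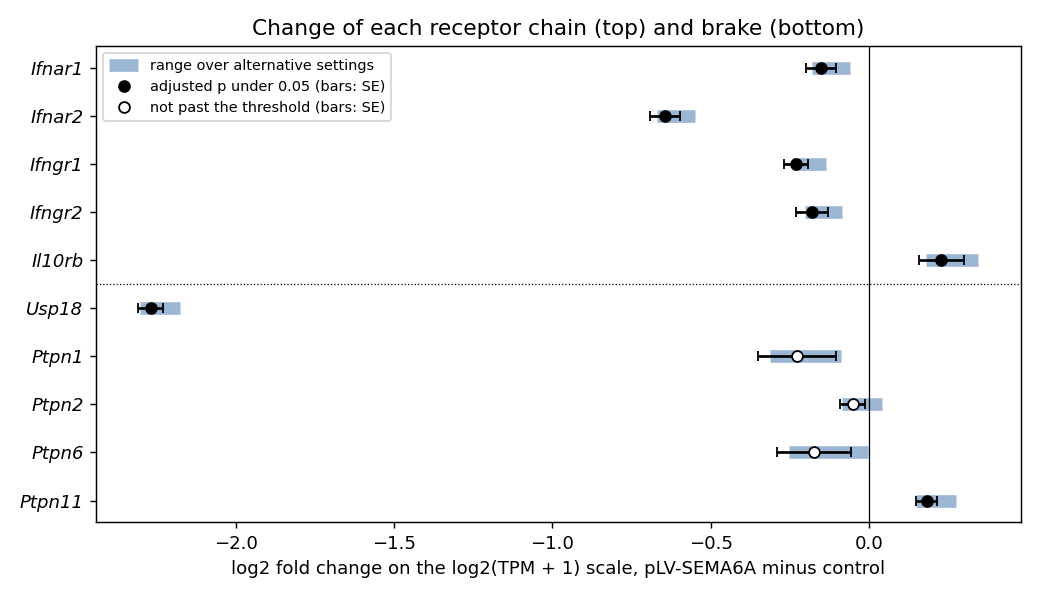
log2 fold change of each gene on the log2(TPM + 1) scale (pLV-SEMA6A minus control), as points with standard error bars, filled where the adjusted p from limma was under 0.05, over a pale bar that spans the alternative settings. Usp18 (−2.27) and Ifnar2 (−0.64) stand apart from the other 8 genes, which lie between −0.23 and 0.23, and the pale bar of Ptpn2 crosses 0.

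Among the phosphatases, 1 of 4 passed, and it rose (beside 47.6% passing and 19.5% rising of all genes tested). Ptpn11, which dephosphorylates proteins of cytokine signalling and is also required for growth factor signalling through RAS, was at 78.0, 75.0 and 74.1 TPM in control against 84.0, 87.3 and 86.9 TPM in pLV-SEMA6A. The groups did not overlap. The rise from 75.7 ± 2.04 to 86.0 ± 1.82 TPM (SD, n = 3 each) was 13.7%, or 0.18 as a log2 fold change (SE 0.03, limma adjusted p = 0.00492). Ptpn11 lies on chromosome 5 (121130533 to 121191397).

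Ptpn2, which dephosphorylates JAK1, did not pass. It was at 82.5, 80.3 and 84.2 TPM in control against 78.9, 76.6 and 83.0 TPM in pLV-SEMA6A, and the groups overlapped. Its log2 fold change of −0.05 (SE 0.04, limma adjusted p = 0.330) turned to 0.043 with median centring. Its transcripts shared 0 of their 31-base stretches with other genes.

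Ptpn1, which dephosphorylates TYK2 and JAK2, was at 23.7, 25.2 and 22.4 TPM in control against 16.4, 22.8 and 21.8 TPM in pLV-SEMA6A. The low value of pLV-SEMA6A replicate 1 carried most of the difference, and the other libraries of that group lay within or near the control range. With a log2 fold change of −0.23 it did not pass (SE 0.12, limma adjusted p = 0.177), and without pLV-SEMA6A replicate 1 the log2 fold change was −0.09 (limma adjusted p = 0.345). Its log2 fold change was thus as far from 0 as that of Ifngr1, with a wider standard error.

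Ptpn6, the phosphatase best known from blood cells, was low at 2.05, 2.06 and 2.0 TPM in control and 1.64, 1.71 and 1.73 TPM in pLV-SEMA6A. The groups did not overlap, but the log2 fold change of −0.17 (SE 0.12, limma adjusted p = 0.266) did not pass. The leukocyte marker Ptprc was at 0 in 5 libraries and at 0.04 TPM in control replicate 3. The macrophage marker Cd68 was at 0.68, 1.20 and 1.97 TPM in control against 0.77, 1.07 and 1.06 TPM in pLV-SEMA6A, and Csf1r was above 0 in every library at up to 0.64 TPM. The other myeloid markers of the list were lower, with Itgam and Adgre1 at 0 in every library and Lyz2 at no more than 0.06 TPM. The part of such cells in the Ptpn6 values was not tested. Ptpn6 also overlaps the antisense gene Gm20531, which was listed at a mean of 0 in both groups.

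The order of the levels differed between the groups, most of all for Usp18. Ptpn2 lay above Ptpn11 in control and below it in pLV-SEMA6A. Ifngr1 and Ifnar1 also changed places, with overlapping ranges in pLV-SEMA6A. In control, Usp18 came first at 154 TPM, followed by Ptpn2, Ptpn11 and Ifnar2 (82.3, 75.7 and 68.6 TPM), and no 2 neighbours among these 4 overlapped in range. Ifngr1, Ifnar1, Ptpn1 and Ifngr2 followed within 21.8 to 25.3 TPM, where Ifnar1 and Ptpn1, and Ptpn1 and Ifngr2, overlapped. In pLV-SEMA6A, Ptpn11 came first at 86.0 TPM, then Ptpn2 at 79.5 and Ifnar2 at 43.5 TPM, and Usp18 followed at 31.1 TPM, with no overlap between neighbours. Ifnar1, Ifngr1, Ptpn1 and Ifngr2 then lay between 19.2 and 21.6 TPM, and each overlapped with the next. Il10rb and Ptpn6 were the ninth and the tenth in both groups.

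Ratios of TPM within a library do not depend on how the library was scaled, and 5 such pairs were compared. Usp18 was 2.21, 2.15 and 2.37 times Ifnar2 in the control libraries and 0.68, 0.73 and 0.73 times Ifnar2 in the pLV-SEMA6A libraries. The transcript of the brake was thus the more abundant of the pair in each control library and the less abundant in each pLV-SEMA6A library. On the log2(TPM + 1) scale, Usp18 minus Ifnar2 changed by −1.63 between the groups (p = 0.1 by a two-sided exact permutation test, n = 3 each, 0.167 adjusted over the 5 pairs). That is the smallest p that the design allows.

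Within the type I receptor, Ifnar1 was 0.35, 0.34 and 0.37 times Ifnar2 in control and 0.48, 0.52 and 0.49 times Ifnar2 in pLV-SEMA6A, with no overlap. The log2 difference changed by 0.49 (p = 0.1 by the same exact permutation test, 0.167 adjusted). The chains of the interferon gamma receptor kept overlapping ratios, with Ifngr1 at 1.14 to 1.17 times Ifngr2 in control and 1.08 to 1.17 times in pLV-SEMA6A. Their log2 difference changed by −0.05 (p = 0.4 by the same exact permutation test, 0.4 adjusted).

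Among the phosphatases, Ptpn1 was 0.27 to 0.31 times Ptpn2 in control and 0.21 to 0.30 times Ptpn2 in pLV-SEMA6A, which overlap (p = 0.4 by the same exact permutation test). Ptpn6 was 0.026 to 0.027 times Ptpn11 in control and 0.020 times Ptpn11 in each pLV-SEMA6A library, with no overlap, and the log2 difference changed by −0.36 (p = 0.1 by the same exact permutation test, 0.167 adjusted).

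**Figure D3:**
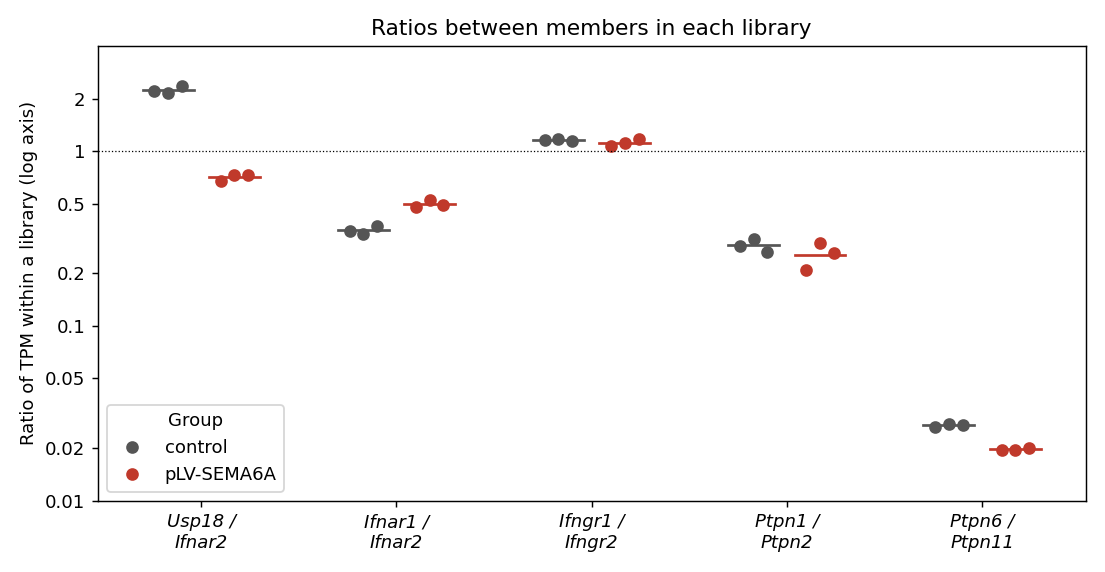
Ratio of TPM between 2 genes within each library on a log axis, 1 point per library with a bar at the group mean, for control (grey, n = 3) and pLV-SEMA6A (red, n = 3). Usp18 over Ifnar2 lies above 1 in each control library and below 1 in each pLV-SEMA6A library, Ifnar1 over Ifnar2 is higher in pLV-SEMA6A, and the ratios for Ifngr1 over Ifngr2 and for Ptpn1 over Ptpn2 overlap between the groups.

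The ligands of these receptors were at or near 0 in both groups. Of 21 interferon genes, 18 were at 0 in every library, among them Ifng and each alpha interferon, and none passed the filter. Ifnb1 was at 0, 0 and 0.12 TPM in control against 0.24, 0 and 0.25 TPM in pLV-SEMA6A. Ifne reached at most 0.76 TPM and Ifnz at most 0.48 TPM. Of the IL-10 family ligands, Il10, Il20, Il22 and Il24 were at 0 in every library, and Il19 was at 0 in all libraries but pLV-SEMA6A replicate 2 (0.53 TPM).

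The chains that pair with IL10RB were listed at 0. Ifnlr1, Il10ra and Il22ra1, which confer binding of the lambda interferons, IL-10 and IL-22, were at 0 in every library. Il20ra, another chain of this receptor family, and Il22ra2, the soluble IL-22 receptor, were also at 0 in every library. Il20rb was at 0.97, 0.48 and 1.23 TPM in control and 0.95, 1.18 and 1.21 TPM in pLV-SEMA6A, and did not pass (limma adjusted p = 0.517). F3, the coagulation tissue factor, which belongs to the same class II cytokine receptor family, fell, with 27.7 ± 0.85 TPM in control against 19.9 ± 2.23 TPM in pLV-SEMA6A (SD, n = 3 each, log2 fold change −0.46, limma adjusted p = 0.00405).

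The receptor-bound kinases did not move as a group. Of 4 JAK genes, 3 were tested, of which 2 fell (beside 28.2% of all genes) and 1 rose (beside 19.5%). Tyk2, the kinase on IFNAR1, had a log2 fold change of −0.88, against −0.15 for Ifnar1 itself. Jak2, the kinase on IFNGR2, was at 18.4, 19.5 and 19.5 TPM in control against 15.6, 14.7 and 15.1 TPM in pLV-SEMA6A (log2 fold change −0.32, limma adjusted p = 0.00240). Jak1, shared by both receptors, rose from 66.9 ± 0.77 to 76.2 ± 1.02 TPM (SD, n = 3 each), with a log2 fold change of 0.19. Jak3 was below the filter, at 1.39 to 1.40 TPM in control and 0.29 to 0.66 TPM in pLV-SEMA6A.

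The 3 downstream factors listed fell (beside 28.2% of all genes), with log2 fold changes of −1.71 for Stat2, −1.21 for Irf9 and −0.38 for Stat3. Of the 12 type I response genes, 11 were tested and 11 fell (beside 28.2% of all genes), with a median log2 fold change of −2.50. Mx1 was below the filter. Oas1a (−3.67), Rsad2 (−3.57) and Ifi44 (−3.15) fell most. Of the 10 type II response genes, 8 were tested and 8 fell (beside 28.2% of all genes), with a median of −1.29. The falls were led by Tap1 (−3.29), Gbp3 (−2.30) and Cxcl10 (−1.68). Ciita averaged 0.07 TPM in control and 0.17 TPM in pLV-SEMA6A, and Cxcl9 0.04 and 0.007 TPM, both below the filter. Ifng was at 0 in every library, and whether these falls reflect a response to interferon gamma was not tested. Every tested receptor chain had a log2 fold change nearer to 0 than each of these 19 response genes, of which the smallest fall was that of Gbp2 (−0.99). The lists were chosen with earlier results of these data known, so this contrast describes only the genes listed.

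Usp18 fell beside the genes whose product it undoes. UBA7, UBE2L6 and HERC6 act in turn to attach ISG15 to proteins, and USP18 takes it off. Ube2l6 (−2.30), Isg15 (−1.86), Herc6 (−1.61) and Uba7 (−1.45) fell on the log2 scale, while Skp2, a ubiquitin ligase component that targets USP18, was at 21.9, 24.5 and 23.8 TPM in control and 22.9, 21.9 and 21.4 TPM in pLV-SEMA6A, overlapping (limma adjusted p = 0.286). Of 49 other Usp genes, 43 were tested, of which 16 fell (beside 28.2% of all genes), 7 rose (beside 19.5%) and 20 did not pass, with a median log2 fold change of −0.08. The largest changes among these were those of Usp43 (0.93), Usp35 (−0.89) and Usp30 (−0.69), each smaller in size than that of Usp18.

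By the pattern across the 6 libraries, the genes most like Usp18 among the 8184 genes whose mean was 10 TPM or more were Grina, Ifit3 and Aldh7a1, with a Pearson correlation of log2(TPM + 1) that rounds to 1 for each. These correlations describe libraries that fall into 2 groups, and 380 genes were above 0.99. The genes differ in the size of the fall, with a log2 fold change of −0.68 for Grina, −2.50 for Ifit3 and −0.16 for Aldh7a1, so likeness of pattern does not measure likeness of size.

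Of 10 other brakes of JAK signalling, 8 were tested, of which 5 fell (beside 28.2% of all genes) and 3 did not pass. Pias1 and Pias3, which inhibit STAT proteins, had log2 fold changes of −0.58 and −0.53, and Socs3, which blocks JAK kinases at cytokine receptors, had one of −0.39. Socs1, the SOCS protein best known for restraining interferon receptors, was at 3.35, 3.07 and 2.52 TPM in control and 3.34, 4.26 and 3.50 TPM in pLV-SEMA6A, and did not pass (log2 fold change 0.24, limma adjusted p = 0.178). With median centring 2 of the 8 fell, beside 2474 of all 12510 genes tested (3523 as deposited).

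Of 13 other non-receptor tyrosine phosphatases, 10 were tested, of which 5 fell (beside 28.2% of all genes) and 5 did not pass, with a median log2 fold change of −0.10. With median centring 2 of the 10 fell, beside 2474 of all 12510 genes tested (3523 as deposited). Ptpn22, a phosphatase best known from lymphocytes, was at 44.5, 41.6 and 44.8 TPM in control against 17.9, 16.9 and 19.1 TPM in pLV-SEMA6A. The groups were far apart, a log2 fold change of −1.24 (SE 0.06, limma adjusted p = 1.9e-05), beside leukocyte markers that together summed to at most 2.53 TPM in any library, most of it Cd68. Ptpn14 (−0.54) and Ptpn3 (−0.38) fell less.

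IFNAR1 is removed from the surface after phosphorylation, through a ubiquitin ligase built on CUL1. Of 8 genes of this turnover, 4 rose, 2 fell and 2 did not pass (beside 19.5% rising and 28.2% falling of all genes). Rbx1 (0.61), Cul1 (0.41), Csnk1a1 (0.35) and Skp1a (0.31), which encode parts of the ligase and a kinase that marks IFNAR1, rose on the log2 scale. Prkd2, another kinase that marks IFNAR1, was at 13.1, 12.7 and 14.2 TPM in control against 4.73, 6.14 and 5.16 TPM in pLV-SEMA6A (log2 fold change −1.18, limma adjusted p = 0.000185). Rack1, a scaffold that binds the receptor, fell with a log2 fold change of −0.40. Btrc and Fbxw11, the parts of the ligase that recognise IFNAR1, had adjusted p-values of 0.175 and 0.118 from limma. RNA values do not measure receptor protein at the surface.

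**Figure D4:**
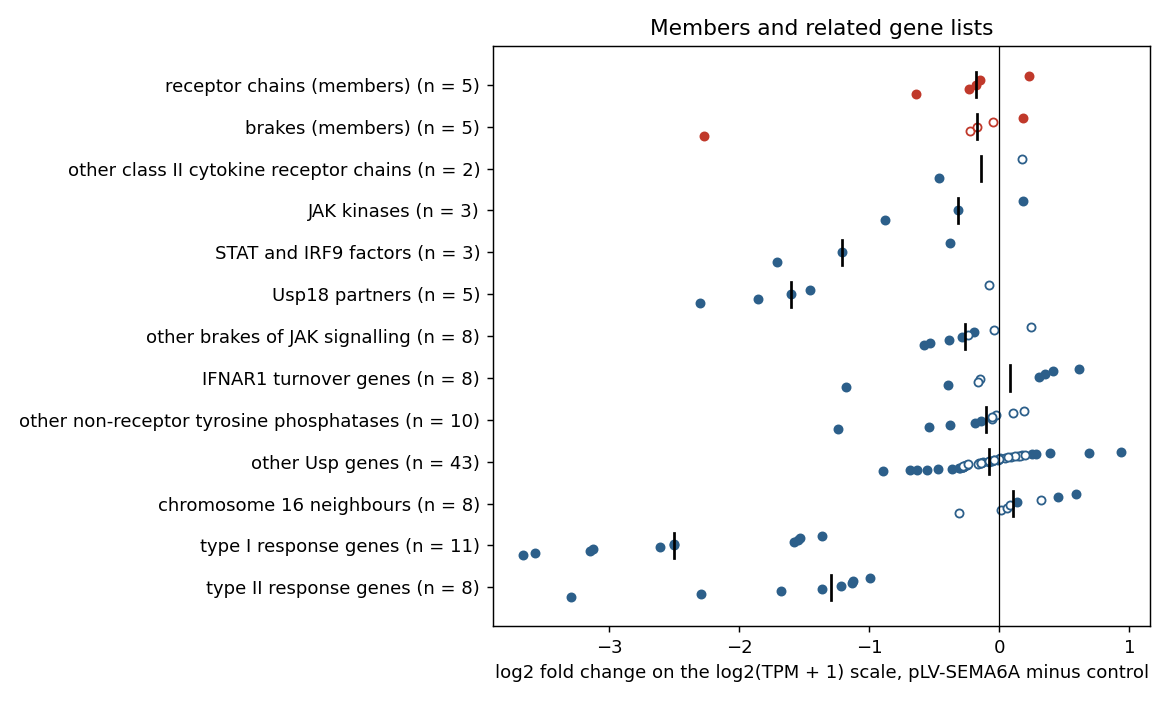
log2 fold change on the log2(TPM + 1) scale (pLV-SEMA6A minus control) of the 10 genes (red) and of related gene lists (blue), 1 point per tested gene, filled where the adjusted p from limma was under 0.05, with a black line at each median. The receptor chains lie near 0 with Ifnar2 the lowest, whereas Usp18 lies among the type I response genes (median −2.50) and the phosphatases near 0.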

How the data were processed

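Poly-A-selected RNA was sequenced in 3 libraries of control SL4 cells and 3 of pLV-SEMA6A cells. The deposited values, rounded to 2 decimals, name no unit and were taken to be TPM. Their sums were 984475 to 986444 in control libraries and 977400 to 977972 in pLV-SEMA6A libraries, and the notes name RSEM. The submitters' processing notes name Bowtie2, HISAT, RSEM and mm39 with no versions or roles, and the study names DESeq2 for its comparison, which needs counts and was not run. Group means by the authors were not used. Since TPM keeps no depth, counting intervals were not computed.

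The 12510 genes whose mean reached 1 TPM were compared on the log2(TPM + 1) scale in R 4.3.3 by limma 3.58.1 (trend option, group as the only term), with Benjamini-Hochberg adjustment over all of them. Pairs of genes were compared by exact permutation (scipy 1.17.1). The steps were tested on simulated data.

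Positions and shared 31-base stretches came from GENCODE M21 on GRCm38, which holds 97.0% of the listed identifiers and is not the build in the notes. Promoters came from RefSeq.

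The 10 genes and the gene lists were chosen with earlier results of these data known. The results of 2 genes of these lists are not reported here. Genes named are the 10, every gene reported of pathway lists of 7 or fewer (marker lists aside), from longer pathway lists up to 3 passing genes with the largest changes, and the 3 most like Usp18. Individual genes named beyond these (Ifnb1, Ifne, Ifnz, Socs1, Csnk1a1, Skp1a, Rack1, Btrc, Fbxw11, Gbp2, Mx1, Ciita, Cxcl9 and marker genes) were chosen after their values were seen. Alternatives were a pseudocount of 0.1, no filter, a filter at 5 TPM, median centring, quantile normalization, the replicate block, other minimum fold changes and leaving out each library.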

Additional observations from a re-analysis of the deposited data

How the results depend on the processing

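The falls of Usp18, Ifnar2 and Ifngr1 and the rise of Ptpn11 kept their direction and passed under all 12 alternatives, with log2 fold changes from −2.30 to −2.18, −0.67 to −0.55, −0.24 to −0.14 and 0.15 to 0.28. Ifnar1 passed in 3 of 12, Ifngr2 in 5 and Il10rb in 5, and Ptpn1, Ptpn2 and Ptpn6 in none of those in which they were tested. The log2 fold change of Ptpn2 turned to 0.043 with median centring. Receptor chains passing lower numbered 2 with median centring, with quantile normalization and with the replicate block, and from 2 to 3 with 1 library left out. Over all genes, those passing lower numbered 2474, 2702, 3059 and from 2917 to 3146 in these settings, against 3523 as deposited. Receptor chains passing higher numbered 0 without a filter and with the replicate block, and from 0 to 1 with 1 library left out. Over all genes, those passing higher numbered 2152, 2168 and from 2095 to 2141 in these settings, against 2436 as deposited. Where none passed, limma gave Il10rb an adjusted p of 0.0533 to 0.105 and an unadjusted p of 0.0195 to 0.0537, with 1 chain or 0 higher at an unadjusted p under 0.05. Members past the criterion for DEGs numbered 7 without a minimum fold change, beside 47.6% of all genes tested. With a minimum of 1 they numbered 1, beside 304 genes lower and 81 higher of the 12510 tested.

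Over all genes, 1347 DEGs were lower and 640 higher. These became 3523 and 2436 without a minimum fold change, 304 and 81 with a minimum of 1, and 961 and 1002 with median centring, which turned the balance. Of the genes that passed, 40.9% were higher as deposited, 57.7% with median centring and 52.5% with quantile normalization. Median centring moved the median log2 fold change from −0.06 to 0.03.

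The other brakes of JAK signalling that fell numbered 3 without a filter, 2 with median centring, 3 with quantile normalization (where 1 rose), and 3 to 5 with 1 library left out. The other phosphatases that fell numbered 3 without a filter, 2 with median centring, 3 with quantile normalization (where 1 rose), 3 with the replicate block and 3 to 5 with 1 library left out. With median centring 6 chromosome 16 neighbours rose. Of the other Usp genes, 10 fell and 10 rose with it, against 16 and 7 as deposited. Over all genes tested, 3196 of 24518 fell without a filter. With median centring 2474 of 12510 fell and 3370 rose, against 3523 and 2436 as deposited. The cause was not tested. The 5 pair differences kept their direction under every alternative run, but Ptpn6 minus Ptpn11 went from −0.36 to −0.15 with quantile normalization, and Ptpn1 minus Ptpn2 from −0.18 to −0.07 with it and to −0.04 without pLV-SEMA6A replicate 1.

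Replicate numbers are shared between the groups, but same-numbered libraries did not deviate together (mean correlation −0.06, from −0.08 to −0.02), so they share only a number. With this block 5227 genes passed instead of 5959, and Ifnar1 (adjusted p = 0.0663), Ifngr2 (0.0771) and Il10rb (0.0533, all from limma) no longer passed. The log2 fold changes are the same in this balanced design. TPM holds no depth, so the counting error of low genes such as Ptpn6 is unknown.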

Other observations

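The receptor genes were read in cells whose labelled origin was not visible in the epithelial markers. Pdgfrb, a growth factor receptor of mesenchymal cells, was at 10.6, 10.2 and 10.7 TPM in control against 6.92, 6.54 and 6.53 TPM in pLV-SEMA6A (log2 fold change −0.59, limma adjusted p = 0.000442). Col1a1, which encodes a chain of type I collagen, moved the other way, from 1.39, 1.23 and 1.19 TPM in control to 3.33, 3.80 and 3.68 TPM in pLV-SEMA6A (log2 fold change 1.02, limma adjusted p = 0.000681). Lgals4, a lectin of the intestinal epithelium, was the only epithelial marker of the list that passed the filter, at 1.78, 2.33 and 2.33 TPM in control and 0, 0.28 and 0.81 TPM in pLV-SEMA6A. Krt8, a keratin of simple epithelia, reached at most 0.39 TPM in any library. The part of cell origin in the receptor values was not tested.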
